A study of Homo sapiens with 6 samples.

Results

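The human HOX genes were examined in A375 cells, a human melanoma cell line, with and without overexpression of HMGB2, a DNA-bending chromatin protein. Members were the 39 protein-coding genes of GENCODE 44 whose symbol is HOX followed by A, B, C or D and a number, out of 58302 gene IDs in each count table. They lie in 4 clusters on hg38: 11 in HOXA on chromosome 7, 10 in HOXB (chr17:48528526-48728750), 9 in HOXC (chr12:53938831-54056030) and 9 in HOXD (chr2:176092721-176190907). Poly(A)-selected RNA was sequenced from 3 libraries of A375 cells stably carrying an empty vector and 3 libraries of A375 cells stably overexpressing HMGB2. Both lines were made by lentiviral transduction and antibiotic selection. The study describes the 3 replicates of a line as technical, each a pellet of cells, so p-values measure the spread between pellets of a line and not between separate transductions. Reads of the introduced and the endogenous HMGB2 were counted together.

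HOX genes encode transcription factors that bind DNA through a homeodomain and give cells their position along the head-to-tail axis of the embryo. Within a cluster, genes with a low number lie at the 3′ end and are used early and toward the head, and genes with a high number are used later and toward the tail, an arrangement called colinearity. Genes with the same number in different clusters are paralogues, descended from 1 ancestral gene. Polycomb complexes keep the clusters silent, Trithorax proteins keep active genes on, and PBX, MEIS and PKNOX proteins bind DNA together with HOX proteins. Adult tissues and tumours often keep a HOX pattern of their site of origin.

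RefSeq promoter windows on GRCh38.p14, from 250 bases before to 50 bases after the transcription start, were matched by symbol for 20 of the 39 genes. HOXA5, HOXB2 to HOXB9, HOXB13, HOXC6, HOXC8 to HOXC13 and HOXD9 were among those with none. The following 3 are shown because they span the outcomes described below: a gene with many reads (HOXA10), the gene with the smallest p-value of the comparison (HOXA13) and the gene with no read at all (HOXB1). CG dinucleotides, which can carry DNA methylation, are in capitals. All 3 are on the minus strand and written in the direction of transcription, at chr7:27179812-27180111, chr7:27200042-27200341 and chr17:48530962-48531261.
HOXA10: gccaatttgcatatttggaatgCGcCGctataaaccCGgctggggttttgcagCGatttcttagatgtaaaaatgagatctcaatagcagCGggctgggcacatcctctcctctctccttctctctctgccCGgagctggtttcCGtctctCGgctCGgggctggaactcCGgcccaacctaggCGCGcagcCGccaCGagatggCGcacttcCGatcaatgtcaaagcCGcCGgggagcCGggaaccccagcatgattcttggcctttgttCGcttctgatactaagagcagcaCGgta
HOXA13: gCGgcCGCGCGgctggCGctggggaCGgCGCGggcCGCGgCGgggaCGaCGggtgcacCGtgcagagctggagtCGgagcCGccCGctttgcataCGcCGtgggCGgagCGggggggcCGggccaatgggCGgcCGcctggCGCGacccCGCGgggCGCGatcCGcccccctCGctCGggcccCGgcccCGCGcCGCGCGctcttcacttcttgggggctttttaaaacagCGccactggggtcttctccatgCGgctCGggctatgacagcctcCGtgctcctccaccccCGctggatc
HOXB1: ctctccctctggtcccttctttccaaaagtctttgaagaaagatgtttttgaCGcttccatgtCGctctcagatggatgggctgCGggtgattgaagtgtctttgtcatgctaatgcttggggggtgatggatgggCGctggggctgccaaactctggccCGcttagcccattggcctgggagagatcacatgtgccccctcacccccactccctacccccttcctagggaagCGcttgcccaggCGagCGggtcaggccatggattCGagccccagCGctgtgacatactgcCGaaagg
HOXA10 held 21 CG dinucleotides in its 300 bases, HOXA13 held 44 and HOXB1 held 11. The observed over expected CpG ratio, the number of CG dinucleotides times the window length over the product of the C and G counts, was 0.88, 1.01 and 0.44. Its median was 0.87 over the 20 HOX windows and 0.58 over 27305 windows of all genes. HOXC4 and HOXC5 were matched to the same window (chr12:54016638-54016937), which counts for both genes here and in the following. The 3 matched HOX genes with a mean normalized count under 10 in both count columns described below were HOXB1, HOXD4 and HOXD12, with 11, 4 and 19 CG dinucleotides, and the other 17 windows held between 11 and 44. HOXA7 and HOXD1, under 10 in the either-strand column alone, held 31 and 36. The letters TATAAA, on either strand, occurred in 4 HOX windows (20%; HOXA3, HOXA9, HOXA10 and HOXD13) and in 12.0% of all windows. TAATTA, a core letter pattern of homeodomain binding that reads the same on both strands, occurred in 2 HOX windows (10%; HOXD3 and HOXD11) and in 4.98% of all windows. Neither pattern contains the other.

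The clusters also encode miRNAs, among them miR-10 and miR-196, known to act on HOX transcripts. Their mature sequences are shown because the loci lie between the genes described here and 2 of them share a seed (bases 2 to 8, in capitals).
hsa-miR-10a-5p: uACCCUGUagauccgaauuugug
hsa-miR-196a-5p: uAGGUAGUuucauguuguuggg
hsa-miR-196b-5p: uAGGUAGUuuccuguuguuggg
Over all 6 libraries together, 0 reads were counted for MIR10A (between HOXB4 and HOXB5), 2 for MIR196A1, 0 for MIR196A2 and 0 for MIR196B. MIR10A and MIR196B lie wholly within exons of another gene of the same strand (ENSG00000257178 and HOXA9), where the counting sets reads aside, so their 0 says nothing of transcription there. Poly(A)-selected long RNA libraries do not measure mature miRNAs, so the other counts speak only of polyadenylated transcripts assigned to the loci.

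Between 45925053 and 56755212 reads per library were assigned to genes without regard to strand, and the groups differed in depth by less than the spread between libraries (exact two-sided permutation p = 0.8; with 3 against 3 the smallest possible p is 0.1). The check gene HMGB2 had normalized counts, which are counts divided by DESeq2 size factors, of 7250, 7729 and 7562 with the empty vector and 15095, 16848 and 14609 with overexpression (log2 difference 1.05, SE 0.10, DESeq2 adjusted p = 4.4e-22). Of 8 melanocyte lineage markers, 4 reached a mean of 10 in the either-strand column, with summed levels of 4877 to 5096 with the empty vector and 5302 to 5624 with overexpression and a median log2 difference of 0.11. Of the markers, 5 did so in the stranded sum described below, with overlapping summed levels of 39309 to 58845 and 39588 to 48504 and a median of -0.22. Most of that sum was SOX10, a defining melanocytic factor, at 0 in the either-strand column and at 52279, 49938 and 32278 with the empty vector and 40252, 41389 and 32561 with overexpression in the stranded sum. In the either-strand column, of 12 markers of keratinocytes, fibroblasts, endothelium, immune cells and epithelia, 9 reached a mean of 10, with COL1A1 the most abundant; PTPRC was at 0. Their summed levels ranged from 3036 to 5050 with the empty vector and from 4434 to 5993 with overexpression. Empty vector replicate 3 stood apart: KRT5, a keratinocyte keratin, was at 5.05, 11.5 and 279 with the empty vector and at 249.8, 199.9 and 289 with overexpression. Overexpression replicate 3 had the highest share of multimapped reads, 10.6%, against 2.58% to 4.89% elsewhere. The part of these differences in the HOX values was not tested, and in bulk RNA a change in the share of cells and a change in RNA per cell cannot be told apart.

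Each table gave the counts in several ways, and the choice matters in HOX clusters, which hold antisense genes. The either-strand column sets aside a read that falls on genes of opposite strands. The sum of the 2 stranded columns keeps such a read, but assigns it to both genes, since the libraries were unstranded (the first stranded column held between 50.07% and 50.17% of the sum). Where the columns disagree, the reads on both genes therefore cannot be divided between a gene and its antisense partner. Of the 39 HOX genes, 38 had at least 1 read in either column. A mean normalized count of 10 was reached by 34 genes in the either-strand column and by 36 in the stranded sum, HOXA7 and HOXD1 being the additional ones.

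HOX expression in A375 cells was broad. In the stranded sum, 8 genes had a mean normalized count over all libraries of 1000 or more, 18 between 100 and 1000, 10 between 10 and 100, and 2 under 10. HOXB2, HOXB9 and HOXC10 together held 36.2% of all HOX counts in the stranded sum and 35.2% in the either-strand column. By cluster, HOXB held 49.3% of the either-strand HOX counts, HOXC 27.9%, HOXD 13.2% and HOXA 9.50%. The shares in the stranded sum were 49.6% for HOXB, 25.3% for HOXC, 13.1% for HOXA and 12.0% for HOXD, so the last 2 changed places. HOXB1, a gene of the early hindbrain, was the only member with 0 reads in every library. A count of 0 allows up to 3 reads per library, an upper limit of 0.0529 to 0.0653 CPM across the libraries, for counting error only.

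**Figure D1:**
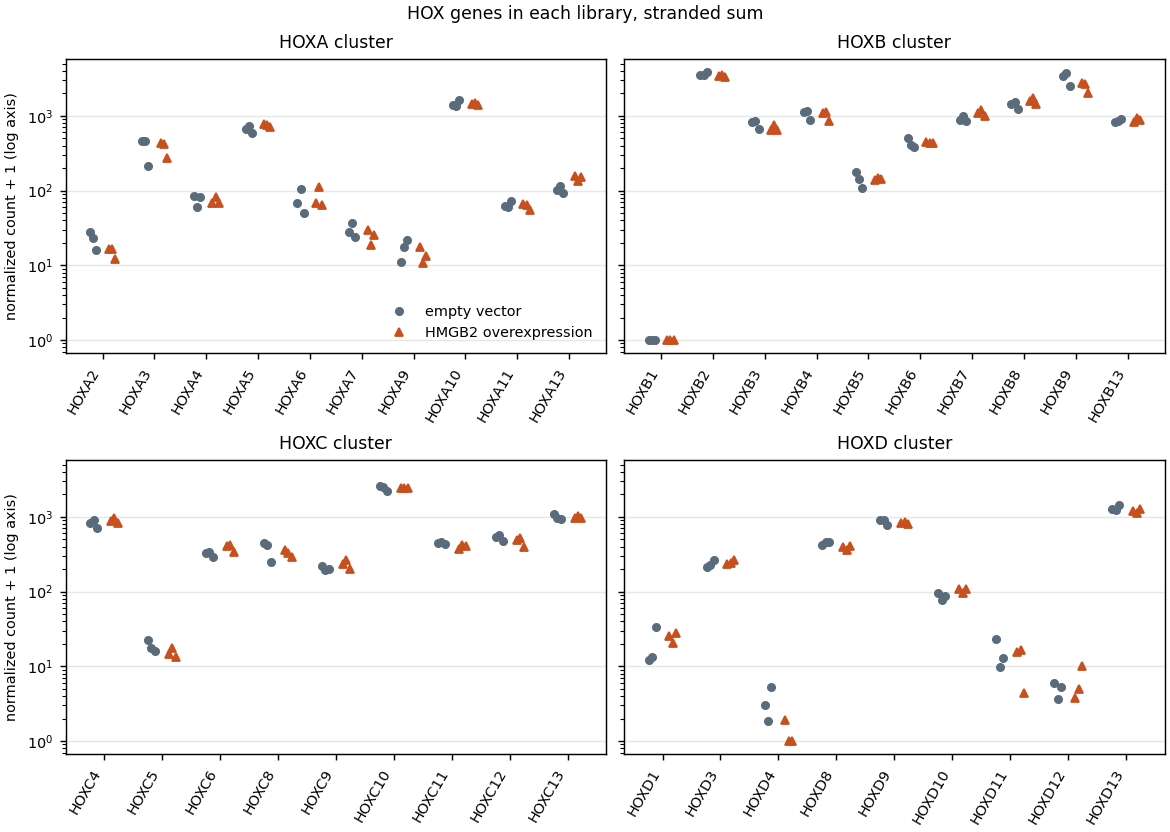
Normalized count plus 1 (log axis, stranded sum) of HOX genes in each of the 3 empty vector libraries (grey circles) and 3 HMGB2 overexpression libraries (orange triangles, replicates 1 to 3 from left to right), in paralogue order within each cluster. Levels span from 0 reads for HOXB1 to a mean of 3628 normalized counts with the empty vector for HOXB2, and for most genes the groups overlap.

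Levels were compared between genes only per kb of exon, with exon sequence shared with another gene of the same strand left out of the length. In the stranded sum, the highest empty vector means were 1477 normalized counts per kb for HOXB2, 1241 for HOXB9 and 1112 for HOXC10. Then followed HOXB7 (599.5), HOXB8 (587), HOXD13 (553), HOXB4 (540.1), HOXD9 (465), HOXA10 (438) and HOXC13 (422). The values for HOXB7 and HOXB8 lay within their spread between libraries, as did those for HOXD13 and HOXB4. Without the reads that fall on both strands, HOXB9 (1239.7 per kb) came before HOXC10 (979) and HOXB2 (934), and HOXA10 fell to 178 per kb. This order cannot be told apart from the share of reads set aside. HOXB9 kept 100% of its stranded-sum reads. HOXB2 kept 61.4%, over 2.369 of 2.456 kb of exon, and HOXA10 kept 33.3%, over 2.731 of 3.339 kb.

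In the stranded sum, the levels did not run evenly along the clusters. In HOXA, HOXA5 and HOXA10 stood out at 381 and 438 per kb between neighbours such as HOXA7 (11.8) and HOXA9 (6.19). In HOXB the level was 0 at HOXB1, highest at the adjacent HOXB2, and again high from HOXB7 to HOXB9. In the either-strand column, where HOXB2 kept 61.4% of its reads, HOXB9 was above HOXB2. In HOXC, HOXC10 stood above its neighbours HOXC9 (128) and HOXC11 (137). In HOXD, HOXD8, HOXD9 and HOXD13 were at 169.7, 465 and 553 per kb, and HOXD4, HOXD11 and HOXD12 were at 2.12, 8.60 and 1.56.

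**Figure D2:**
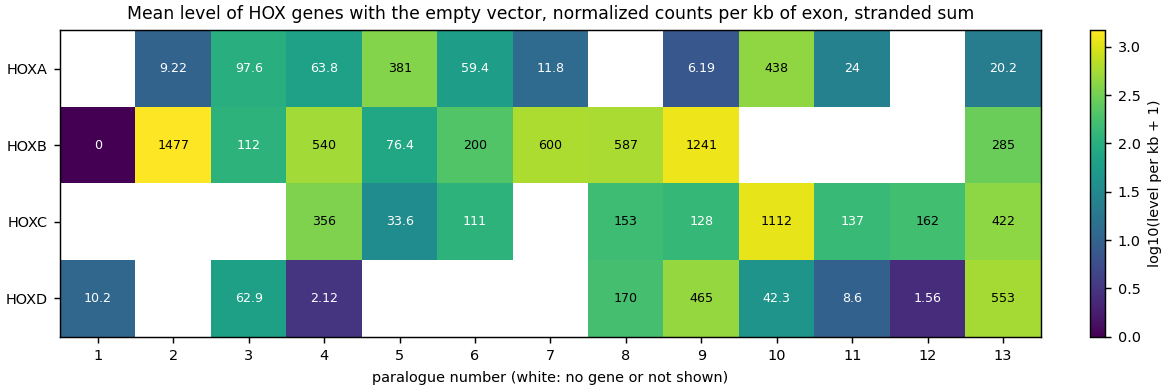
Mean level with the empty vector (normalized counts per kb of exon, stranded sum, 3 libraries) by cluster and paralogue number, with colour on a log10 scale; white cells have no gene or are not shown. The highest levels are at HOXB2, HOXB9 and HOXC10, and genes at both ends and in the middle of the clusters are expressed.

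The share of the stranded sum that stayed in the either-strand column is lowered by reads on genes of both strands. It did not follow the length of the annotated overlap alone. It was over 90% for 20 of the 36 genes and under 50% for 7: HOXD3 (10.9%), HOXB3 (33.0%), HOXA10 (33.3%), HOXA7 (33.8%), HOXD1 (35.7%), HOXB6 and HOXA6 (49.1% each). HOXA10, a factor of uterine and haematopoietic development, shares 608 bases of exon with HOXA10-AS on the opposite strand. Over the 6 libraries, HOXA10 had 2915 either-strand reads and 8757 in the stranded sum, and HOXA10-AS had 7 and 5882. The reads set aside were thus nearly the same number for both genes, 5842 and 5875. HOXD3 had 156 either-strand and 1437 stranded-sum reads, against 152 and 1509 for HOXD-AS2, with which it shares 379 bases. HOXB2 went from 13099 to 21325 reads, and HOXB-AS1, which overlaps its annotated exons by 87 bases, from 417 to 10020. A read on both strands is thus in the stranded sum of both genes and in the either-strand value of neither. In either-strand counts per kb of exon free of other genes, the empty vector mean was 178 for HOXA10 and 1.65 for HOXA10-AS. It was 934 for HOXB2 and 62.4 for HOXB-AS1, but 7.65 for HOXD3 and 28.9 for HOXD-AS2. How the shared reads divide between the genes was not tested. Reads shared with a gene of the same strand are in no column, as in the 368 bases of exon that HOXA10 shares with ENSG00000257184.

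**Figure D3:**
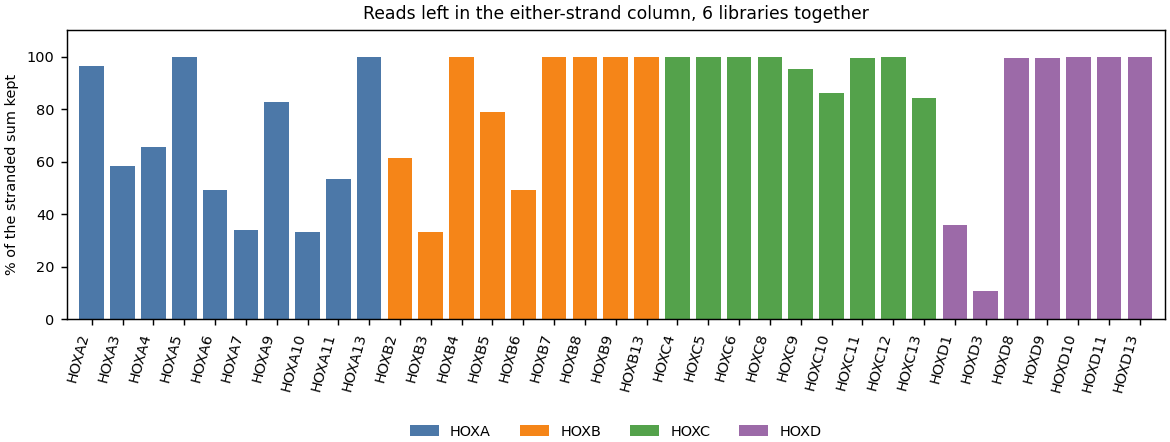
Percent of the stranded-sum reads of HOX genes that remain in the either-strand column, over the 6 libraries together, coloured by cluster. Most HOXC genes and the numbers 8 to 13 of HOXD keep nearly all reads, while HOXA10, HOXB3 and HOXD3 keep 33.3%, 33.0% and 10.9%.

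The comparison asked whether HOX transcript levels differ between HMGB2 overexpression and the empty vector. No HOX gene passed the test in either column. In the either-strand column, 37 members received an adjusted p, and 0 were called higher and 0 lower at a DESeq2 Benjamini-Hochberg adjusted p under 0.05. Of all 18836 genes tested, 2.29% were called higher and 2.64% lower. In the stranded sum, 37 members were tested and again 0 were called in each direction, beside 2.09% higher and 2.69% lower of 21265 genes. At an unadjusted p under 0.05 there were 3 HOX genes by DESeq2 (HOXA13, HOXB7 and HOXB9) and 2 by edgeR (HOXA13 and HOXB7), in both columns, and edgeR called 0. Over all genes with reads, DESeq2 gave such a p to 2797 of 32925 in the either-strand column. In the stranded sum it did so for 3130 of 35032. This background, here and below, includes many genes of low count. Of its genes, 16692 in the either-strand column and 19147 in the stranded sum had a mean of 10 or more. The edgeR share over all genes was not computed. The smallest adjusted p was 0.174 in the either-strand column and 0.172 in the stranded sum, both for HOXA13.

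The size of the differences did not follow the count level alone: HOXB9, with the highest mean either-strand count, was at -0.37. Over the 34 genes with a mean of 10 or more in the either-strand column, log2 differences ran from -0.51 (HOXA2) to 0.51 (HOXA13), with a median of -0.03 beside -0.001 over all 16692 genes at that level. Of the 34, 16 had a positive and 18 a negative value. The 95% interval lay within 1 on the log2 scale on both sides of 0 for 28 of the 34 genes in this column and for 30 of the 36 in the stranded sum, so a change of 2-fold or more lay outside the interval for these. The 6 others in this column, HOXA2, HOXA6, HOXA9, HOXC5, HOXD3 and HOXD11, had mean counts under 50.

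The 3 overexpression libraries were all above the 3 empty vector libraries for 1 of the 34 genes (HOXA13) and all below them for 2 (HOXC11 and HOXD8). Over all 16692 genes these shares were 11.4% above and 11.4% below. For the HOX genes the shares were 2.94% and 5.88%, both under that background, but from only 1 and 2 genes. Whether they differ from the background was not tested.

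**Figure D4:**
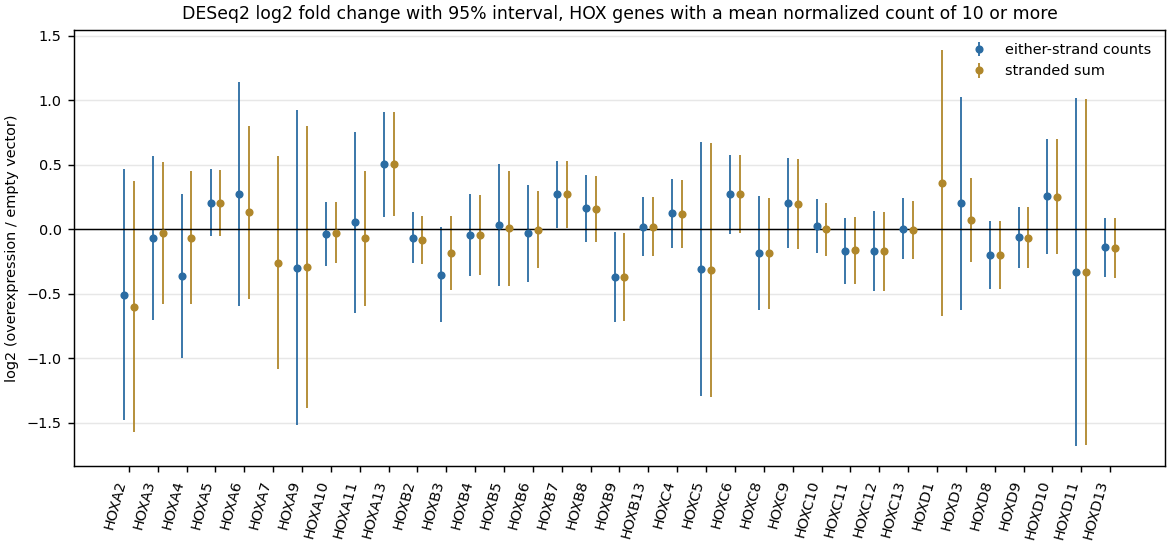
DESeq2 log2 difference (HMGB2 overexpression over empty vector, 3 libraries each) with its 95% interval for HOX genes whose mean normalized count was at least 10, in the either-strand column (blue) and the stranded sum (ochre). HOXA13 is the highest point at 0.51, HOXB9 lies at -0.37, and the intervals of low-count genes such as HOXD11 reach past 1 on both sides.

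HOXA13 (ENSG00000106031, chr7:27193503-27200091, minus strand) is the last gene of its cluster and patterns hands, feet and the genital tract. Its either-strand normalized counts were 101, 114 and 92.3 with the empty vector and 157, 131 and 149.7 with overexpression. The groups did not overlap, but the gene did not pass (log2 difference 0.51, SE 0.21, 95% interval 0.10 to 0.91, DESeq2 adjusted p = 0.174; edgeR adjusted p = 0.14). It shares 86 bases with the antisense HOTTIP and kept 99.9% of its reads. Under 13 alternative settings the log2 difference stayed between 0.42 and 0.59 and the adjusted p between 0.098 and 0.700.

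HOXB9 (ENSG00000170689, chr17:48621156-48626358, minus strand), a gene of thoracic identity, had the highest either-strand count of all members. Its normalized counts were 3367, 3743 and 2507 with the empty vector and 2723, 2709.6 and 2007 with overexpression. In both groups replicate 3 was the lowest, and empty vector replicate 3 lay below overexpression replicates 1 and 2, so the groups overlapped. The log2 difference was -0.37 (SE 0.18, 95% interval -0.72 to -0.02, DESeq2 adjusted p = 0.303; edgeR adjusted p = 0.315).

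This outcome for HOXB9 turned on how the libraries numbered 3 were treated. Without empty vector replicate 3 the log2 difference was -0.52 and the DESeq2 adjusted p 0.000955, in a fit that called 17.8% of genes (stranded sum: adjusted p = 0.000862, 17.3% of genes). With a term for the replicates numbered 3, it was -0.37 with an adjusted p of 1.14e-05, and 17.3% of genes were called (stranded sum: 7.08e-06, 15.9%). With replicates 1 and 2 of both groups alone it was -0.39 with an adjusted p of 4.01e-05, and 17.4% of genes were called (stranded sum: 3.45e-05, 15.6%). These fits called 1 HOX gene lower, except that 2 were called lower in the either-strand column without empty vector replicate 3, the other being HOXB3. Over all 13 alternatives, the adjusted p of HOXB9 ran from 1.14e-05 to 0.905, with a negative sign throughout. It was called under 4 of them, these 3 and the fit with the replicate number as a block.

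HOXB7 (ENSG00000260027, chr17:48607232-48633572, minus strand), which has been studied as a growth-promoting factor in melanoma, had normalized counts of 884, 1004 and 842 with the empty vector. With overexpression they were 1088, 1215 and 995. Only overexpression replicate 3 lay below any empty vector library, namely replicate 2. The log2 difference was 0.27 (SE 0.13, 95% interval 0.01 to 0.53, DESeq2 adjusted p = 0.313; edgeR adjusted p = 0.271). With the term for the replicates numbered 3 it was called, at an adjusted p of 0.0346, and so 1 HOX gene was called higher in that fit, in both columns.

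**Figure D5:**
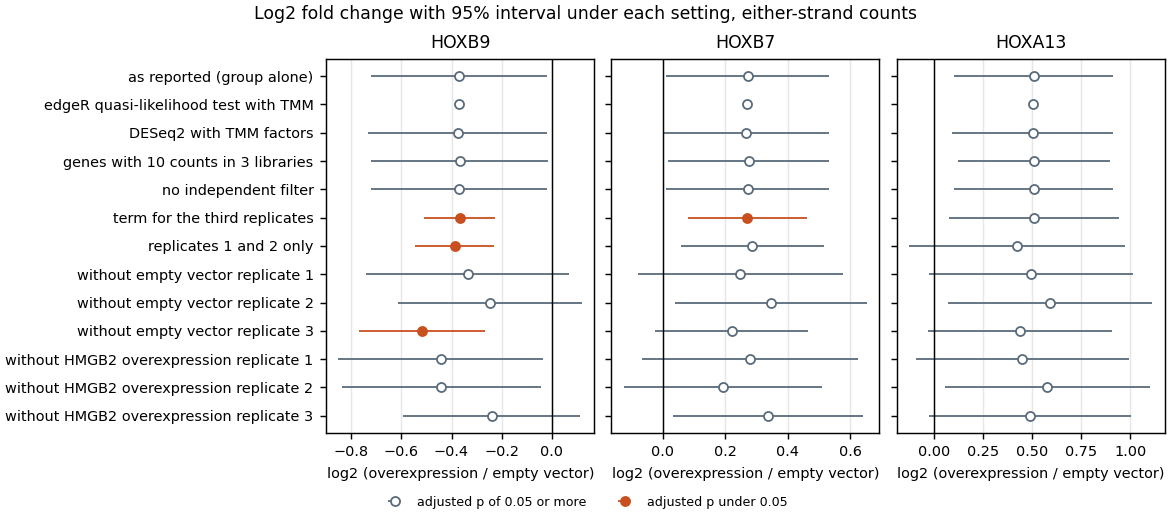
Log2 difference (HMGB2 overexpression over empty vector, either-strand counts) of HOXB9, HOXB7 and HOXA13 under the reported fit and 12 other settings (the replicate block is not plotted), with 95% intervals where the tool gives a standard error; filled points have an adjusted p under 0.05. Among the settings plotted, HOXB9 is filled only where empty vector replicate 3 is left out, replicates 1 and 2 are used alone or the replicates numbered 3 have a term; HOXB7 only with that term; HOXA13 under none.

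The libraries numbered 3 were low for other members too. HOXA3, a gene of the pharyngeal arches and thymus, had either-strand normalized counts of 283, 274 and 118 with the empty vector and 247, 253 and 143 with overexpression. HOXC8, a gene of brachial motor neurons, had 441, 423 and 246, and 359, 328 and 291. HOXB4, a regulator of haematopoietic stem cells, had 1116, 1168 and 883, and 1089, 1134 and 849. In each gene replicate 3 was the lowest library of both groups. Among 26 HOX genes with a mean of 50 or more, this held for 15 (57.7%), and among 13333 genes at that level for 32.6%. In the stranded sum it held for 14 of 30 (46.7%), beside 31.9% of 15438 genes. The opposite order occurred at HOXD13, where replicate 3 was the highest of both groups (1292, 1254 and 1452 with the empty vector, 1216, 1135 and 1276 with overexpression).

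The HOXA genes summed to 1895, 2011 and 1677 either-strand normalized counts with the empty vector and 2057, 2069 and 1818 with overexpression, and overlapped. Of its anterior members, HOXA2, which specifies the second pharyngeal arch, was at 20.1 ± 4.46 and 14.2 ± 2.51 (mean ± SD of 3 libraries, empty vector first, as in the following), at 10 to 25 reads a library. HOXA4 was at 54.6 ± 9.38 and 42.6 ± 9.10. HOXA5, a regulator of lung and limb-girdle development, was the highest HOXA gene in this column, at 654 ± 71.8 and 755 ± 38.4 (log2 difference 0.21, SE 0.13, DESeq2 adjusted p = 0.533).

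Of the other HOXA genes, HOXA6 was at 34.1 ± 10 and 41.2 ± 21.7, with overexpression replicate 2 alone at 66.0. HOXA7 reached a mean of 10 only in the stranded sum, where it was at 28.4 ± 6.43 and 23.9 ± 5.73, and shares 1507 bases of exon with HOXA-AS3. HOXA9, a driver of leukaemia when overexpressed, was near the floor at 13.1 ± 6.32 and 10.7 ± 0.731. HOXA10 differed little in either column, at 487 ± 25.8 and 474 ± 16.8 either-strand and 1464 ± 162 and 1437 ± 35.2 in the stranded sum (log2 difference -0.03, 95% interval -0.26 to 0.21). HOXA11, a gene of forearm and uterine development, was at 32.5 ± 4.92 and 33.9 ± 3.62, with 53.2% of its reads kept beside HOXA11-AS.

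The HOXB cluster summed to 10507, 11046 and 9206 with the empty vector and 9952, 10469 and 8702 with overexpression, and overlapped. HOXB2, a hindbrain gene, was at 2213 ± 108 and 2116 ± 81.6 either-strand (log2 difference -0.06, SE 0.10), and at 3628 ± 156 and 3422 ± 121 in the stranded sum. HOXB3, with which it shares the HOXB-AS1 locus, was at 289.9, 302 and 215 and at 223, 219 and 190.2. Its log2 difference was -0.35 (SE 0.19, DESeq2 adjusted p = 0.394) either-strand, where 33.0% of its reads remained, and -0.18 in the stranded sum. Without empty vector replicate 3 it was called in the either-strand column alone (log2 difference -0.49, adjusted p = 0.0424).

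HOXB5, HOXB6 and HOXB13, the last a regulator of prostate development, had log2 differences of 0.03, -0.03 and 0.02. HOXB5 was at 111 ± 25.9 and 113 ± 6.91, with empty vector replicate 3 lowest at 81.6. HOXB6 was at 216 ± 41.5 and 211 ± 13, and HOXB13 at 863 ± 42.8 and 875 ± 52.9. HOXB8, a factor of myeloid progenitors that neighbours HOXB7, was at 1459.7, 1535 and 1235 and at 1591, 1715 and 1428, with a positive difference of 0.16 (SE 0.13, DESeq2 adjusted p = 0.68). HOXB7 and HOXB8 on the one hand, and HOXB9 on the other, are direct neighbours whose values had opposite signs; the difference between them was not tested.

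The HOXC cluster summed to 5956, 5853 and 5050 with the empty vector and 5710, 5943 and 5357 with overexpression, and overlapped. HOXC4 and HOXC6 share 484 bases of exon on the same strand, and HOXC5 shares 67.3% of its exons with other genes of that strand, and reads in shared exon of the same strand are counted for neither gene in both columns. HOXC4 was at 812 ± 96.8 and 885 ± 65.9, HOXC5 at 17.7 ± 3.18 and 14.2 ± 2.25. HOXC6, a gene of brachial motor neurons, was at 330.3, 344 and 291 and at 401, 425 and 339.9 (log2 difference 0.27, SE 0.16, DESeq2 adjusted p = 0.441). Its groups overlapped only by overexpression replicate 3, which lay below empty vector replicate 2.

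HOXC9, a thoracic gene, was at 194 ± 13 and 223 ± 30.3. HOXC10, a gene of lumbar motor neurons, hardly differed, at 2096 ± 172 and 2130.4 ± 14.5 (log2 difference 0.02, SE 0.11, 95% interval -0.19 to 0.23). HOXC11 was at 447, 462 and 428 and at 374, 423 and 394, without overlap (log2 difference -0.17, SE 0.13, DESeq2 adjusted p = 0.656). HOXC12 was at 528 ± 54.7 and 469.5 ± 65.4. HOXC13, which controls hair and nail keratin genes, was at 834 ± 61.7 and 837 ± 44.4.

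The HOXD cluster summed to 2753, 2747 and 2835 with the empty vector and to 2597, 2513 and 2626 with overexpression. Here every overexpression library lay below every empty vector library, with a log2 ratio of the means of -0.11. HOXD13, which patterns digits, made up much of this sum at 1333 ± 105 and 1209 ± 71.1 (log2 difference -0.14, SE 0.12, DESeq2 adjusted p = 0.689). HOXD9 was at 865 ± 73.7 and 828 ± 35.2. HOXD8 was at 413, 462 and 452 and at 396, 362 and 401 (log2 difference -0.20, SE 0.13, DESeq2 adjusted p = 0.577), without overlap.

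HOXD10, a gene of lumbar and limb patterning, was at 86.0 ± 9.42 and 103 ± 6.92 with a positive difference of 0.26 (DESeq2 adjusted p = 0.72). It shares 452 bases of exon on the same strand with HOXD11, which was at 14.3 ± 7.02 and 11.2 ± 6.82. HOXD3 was at 24.3 ± 5.72 and 27.9 ± 6.41 either-strand and at 232 ± 25.5 and 244 ± 14 in the stranded sum. HOXD1 was at 18.6 ± 11.9 and 23.7 ± 3.76 in the stranded sum, where empty vector replicate 3 had 32.4 against 11.1 and 12.4 in the other libraries of its group. The remaining members with reads were HOXD12, with 3 to 8 reads a library, and HOXD4, with 0 to 4.

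Paralogue groups were compared as sums over the clusters. Numbers 1 to 3, 4 to 8 and 9 to 13 had log2 ratios of the overexpression over the empty vector mean of -0.08, 0.10 and -0.12, and all overlapped. Among single numbers, number 9 had the lowest ratio at -0.27 (4277.5 and 3541.6 normalized counts, of which HOXB9 made up most), and number 7 the highest at 0.27, set by HOXB7. In the stranded sum, number 11 was lower in every overexpression library (530.4, 532 and 517 with the empty vector, 455, 505 and 459 with overexpression), while in the either-strand column its groups overlapped. No p was computed for these sums.

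Non-coding genes inside the clusters were examined as the nearest transcripts on the same chromatin. GENCODE 44 lists 57, of which 29 had reads and 14 reached a mean of 10 in the either-strand column. Of the 28 without reads, 19 have no exon base free of another gene, 15 of them on the same strand alone. With these exons, the counting could not assign them a read, but the annotation release used for counting is not known. Of 16 tested, 0 were called by DESeq2, with 0 at an unadjusted p under 0.05, and edgeR called 0, with 2 at an unadjusted p under 0.05. By DESeq2, 2797 of all 32925 genes with reads had such a p. The smallest p values were those of HAGLR, a long non-coding RNA at HOXD1, and HOXC13-AS. HAGLR was at 445, 534 and 429 with the empty vector and 594, 563 and 528 with overexpression (log2 difference 0.26, DESeq2 adjusted p = 0.42). HOXC13-AS was at 68.7, 67.3 and 50.4 and at 42.7, 51.2 and 36.0 (log2 difference -0.52, DESeq2 adjusted p = 0.462). HOTAIR, named here outside the rule for its known link of the HOXC locus to Polycomb, had 15 to 27 reads a library.

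Protein-coding genes within 250 kb of a cluster were 22, of which 15 were tested. DESeq2 and edgeR called 0, with 2 at an unadjusted p under 0.05 by each, beside 2797 of all 32925 genes with reads by DESeq2. CALCOCO2, an autophagy receptor gene beside HOXB, was at 7709.8, 7893 and 7899 and at 6929, 6438 and 6417, without overlap (log2 difference -0.25, SE 0.09, DESeq2 adjusted p = 0.0883). LNPK, an endoplasmic reticulum gene beside HOXD, was at 1167, 1186 and 1647 and at 1589, 1575 and 1922 (log2 difference 0.35, DESeq2 adjusted p = 0.295), with empty vector replicate 3 among the overexpression libraries.

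Of 9 DNA-binding partners of HOX proteins from the PBX, MEIS and PKNOX families, 9 were tested. DESeq2 and edgeR called 0, with 3 at an unadjusted p under 0.05 by each, beside 2797 of all 32925 genes with reads by DESeq2. All 9 had a mean of 10 or more, against 16692 genes of that background, so the 2 sets are unlike in level. The median log2 difference was 0.21, and 4 of 9 lay above without overlap, beside the 11.4% of all genes given above. MEIS2 was at 793, 922 and 693 with the empty vector and 961, 1104 and 1187 with overexpression (log2 difference 0.43, SE 0.15, DESeq2 adjusted p = 0.0704). PBX3 was at 794, 864 and 868 and at 1067, 1069.7 and 997 (log2 difference 0.31, SE 0.11, DESeq2 adjusted p = 0.0827).

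Among regulators of the clusters, 1 of 27 Polycomb genes was called higher and 1 lower (3.7% each, beside 2.29% and 2.64% of all genes), at a median log2 difference of -0.04. These shares are near the background, so the counts are no result about the list. RBBP4, a histone-binding subunit shared with other chromatin complexes, rose from 5392, 6021 and 6410.2 to 7200.5, 7370.4 and 7932 (log2 difference 0.34, SE 0.11, DESeq2 adjusted p = 0.0432). EZH2, the methyltransferase of Polycomb repressive complex 2, fell from 4797, 4991 and 5191 to 4029, 3966 and 4289 (log2 difference -0.29, SE 0.09, DESeq2 adjusted p = 0.049). Both lay close to the threshold: edgeR called neither, and each was called under 6 of 13 alternatives. EZH2 was not called in the stranded sum (DESeq2 adjusted p = 0.0523). Leaving out 1 library gave 0 Polycomb calls, except for 5 without empty vector replicate 3, the fit that called 17.8% of all genes. Of all genes, 1.97% were called without empty vector replicate 1 and 2.56% without its replicate 2. Without overexpression replicate 1, 2 or 3 the shares were 2.49%, 2.58% and 2.3%. Of 19 Trithorax and co-activator genes, 1 was called higher (5.26%, beside 2.29% of all genes) and 0 lower. MLLT3, which links active chromatin to transcription elongation, rose from 842, 949.6 and 699.7 to 1098, 1234 and 1150.2 (log2 difference 0.48, SE 0.14, DESeq2 adjusted p = 0.0212), and was called under 8 of 13 alternatives, not with edgeR. Trithorax calls were 6 without empty vector replicate 3 (17.8% of all genes), 1 without its replicate 2 and 0 without any other library.

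Of 18 genes of retinoic acid signalling and CDX factors, known to act upstream of HOX genes, 14 were tested, 0 were called higher and 1 lower (7.14%, beside 2.64% of all genes). RXRG, a retinoid X receptor, fell from 3115, 2975 and 2754 to 2078, 1849 and 1700.5 (log2 difference -0.65, SE 0.12, DESeq2 adjusted p = 5.97e-06). It was called under 13 of 13 alternatives, edgeR among them. The list's calls were 4 without empty vector replicate 3 (17.8% of all genes) and 2 without overexpression replicate 2 or 3 (2.58% and 2.3% of all genes).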

How the data were processed

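The 6 libraries of A375 cells (3 empty vector, 3 HMGB2 overexpression) were compared. The authors used FastQC for read quality and Trimmomatic for trimming, aligned to hg38 (GRCh38) and deposited raw read counts per gene without normalization, in the gene count layout of STAR; the STAR version and annotation release are not given in the sources used here. The labels' processing notes also name bcl2fastq 2.20. In this layout only reads with a unique alignment inside a unique gene are counted, and 4 summary lines per table were left out. Ambiguous reads, set aside by the authors' counting, made up 10.7% to 11.4% of reads. Symbols and coordinates came from GENCODE 44, which matched 57532 of 58302 IDs. Unmatched IDs held 0.0575% of counts. Exon overlaps are also those of GENCODE 44 and may differ from those of the release used for counting.

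The HOX members and all other lists were chosen with earlier results of these data known. Counts were fitted over the whole table with DESeq2 1.42.0 in R 4.3.3 (default Wald test on group, as in the study, call at a Benjamini-Hochberg adjusted p under 0.05), separately on the either-strand column and on the sum of the stranded columns. Normalized counts are counts over DESeq2 size factors, log2 differences are unshrunken, and 95% intervals are normal. Named were all HOX genes whose mean normalized count was at least 10 in either column, and of each other list the called genes or, with none called, the 2 with the smallest p; 2 genes that entered the fits and the counts over lists are not reported here by name. Alternatives were edgeR 4.0.16 (quasi-likelihood, TMM), DESeq2 with TMM factors, a minimum of 10 counts in 3 libraries, no independent filter, the replicate number as a block, a term for the replicates numbered 3, replicates 1 and 2 alone, and leaving out each library. The fits were tested on simulated data. No library was a duplicate of another of its group: the chi-square per degree of freedom between replicates was 13.5 or more. Pairs across the groups were not compared. Promoter and miRNA sequences are RefSeq entries on GRCh38.p14. Protein sequences were not used here. Intervals and limits for counts of 0 cover counting error only.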

Additional observations from a re-analysis of the deposited data

How the results depend on the processing

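The count of HOX genes called was 0 in both directions and both columns with edgeR, TMM factors, the count filter and no independent filter. It became 1 higher with a term for the replicates numbered 3, and 1 lower with that term and with replicates 1 and 2 alone, in both columns. Leaving out 1 library gave 0 to 2 lower in the either-strand column and 0 to 1 in the stranded sum, with the highest value without empty vector replicate 3, and 0 higher. For neighbours, cofactors, Polycomb, Trithorax and retinoid or CDX genes, called numbers were 3, 3, 6, 6 and 3 with the term (17.3% of all genes), 3, 1, 6, 7 and 4 with replicates 1 and 2 alone (17.4%), and 0 to 3, 0 to 1, 0 to 5, 0 to 6 and 1 to 4 when leaving out 1 library, again with the highest value without empty vector replicate 3 (17.8% of all genes; for cofactors also without its replicate 2). For Polycomb genes edgeR and no independent filter gave 0 and the stranded sum 1, and for Trithorax genes edgeR gave 0. The 0 for non-coding genes was the same in all settings. The cause of these changes was not tested. HMGB2 gave 0.98 to 1.09 when leaving out 1 library, and the log2 ratios between the groups of the cluster and paralogue sums moved by less than their spread with the stranded sum and with TMM factors, while the summed levels differed between the columns (HOXA empty vector mean 1861 either-strand and 3147 in the stranded sum).

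With the replicate number as a block, 1 HOX gene was called lower and 0 higher in both columns (HOXB9, log2 difference -0.37, adjusted p = 0.000338), and 2 neighbours, 3 cofactors, 4 Polycomb, 2 Trithorax and 4 retinoid or CDX genes, in a fit that called 12.5% of genes (12.3% in the stranded sum). The labels do not say whether the numbers pair the samples. Correlations of same-numbered libraries' deviations from their group means were 0.0906, 0.142 and 0.349. The value for the replicates numbered 3 was the highest between the groups. Empty vector replicate 2 also correlated best with its own number, but empty vector replicate 1 correlated best with overexpression replicate 2 (0.212). These values do not settle whether the samples are paired.

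Some small HOX log2 differences, none past the threshold, changed sign. With replicates 1 and 2 alone, the either-strand value was 0.00314 for HOXA10, -0.088 for HOXA11, -0.11 for HOXB5 and -0.034 for HOXC10, and the stranded sum gave 0.088 for HOXA10, 0.087 for HOXA11, 0.038 for HOXA4 and -0.16 for HOXB5. In the stranded sum, TMM factors gave -0.00166 for HOXB5, the count filter 0.0018 for HOXC10, the block 0.01 for HOXA3, 0.00382 for HOXB6 and 0.00165 for HOXC10, and the term 0.00577 for HOXA3 and 0.00134 for HOXC10. Leaving out 1 library, either-strand ranges across 0 were HOXA11 -0.019 to 0.19, HOXA3 -0.37 to 0.15, HOXA6 -0.24 to 0.53, HOXA9 -0.64 to 0.0052, HOXB13 -0.026 to 0.063, HOXB4 -0.16 to 0.072, HOXB5 -0.14 to 0.17, HOXB6 -0.12 to 0.14, HOXC10 -0.0401 to 0.0704, HOXC13 -0.031 to 0.065, HOXD11 -0.65 to 0.13, and in the stranded sum HOXA10 -0.077 to 0.0695, HOXA11 -0.13 to 0.013, HOXA3 -0.31 to 0.15, HOXA4 -0.21 to 0.025, HOXA6 -0.17 to 0.46, HOXB13 -0.028 to 0.065, HOXB4 -0.15 to 0.069, HOXB5 -0.16 to 0.20, HOXB6 -0.085 to 0.12, HOXC10 -0.061 to 0.045, HOXC13 -0.041 to 0.055, HOXD11 -0.65 to 0.13. The 6 genes whose either-strand intervals reach past 2-fold had mean counts under 50, as did HOXA4 and HOXA11, whose intervals did not; the part of depth was not tested.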
